A study of Mus musculus with 6 samples.

Results

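The creatine kinase system was described here through 7 of the 19533 genes measured in epithelial cells of the mouse large intestine: the creatine kinases Ckb, Ckm, Ckmt1 and Ckmt2, the creatine synthesis enzymes Gatm and Gamt, and the creatine transporter Slc6a8. The members were chosen by name with the signals of these same arrays, HDAC3ΔIEC against HDAC3FF, already known, and each gene is read by its probe set with the highest mean signal, which here is the 1 probe set that names it alone. Live EpCAM-positive cells came from large intestines of C57BL/6 mice raised germ-free, that is, without microbes. The 3 HDAC3ΔIEC mice lack the histone deacetylase HDAC3 in their intestinal epithelial cells, and the 3 HDAC3FF mice are their controls; both groups were germ-free, and no Cre driver, age or sex is stated in the labels. Total RNA of each mouse was hybridised to 1 Affymetrix array, and the values are the deposited log2 signals, on which a difference of 1 is a doubling.

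Creatine kinases move a phosphate group between ATP and creatine. Phosphocreatine then serves as a store from which ATP is remade where it is used quickly. CKB, the brain-type enzyme, works in the cytosol of many tissues, CKM is its counterpart in muscle, CKMT1 sits between the mitochondrial membranes of many cell types, and CKMT2 is the mitochondrial form of striated muscle. Creatine is made from arginine and glycine by GATM, and its precursor is methylated by GAMT at the cost of S-adenosylmethionine. SLC6A8 imports creatine from outside the cell. In gut epithelium, creatine kinases have been described at the cell junctions, where they help meet the energy cost of the barrier, and as targets of hypoxia-inducible factors (HIF).

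The promoters of the kinase genes are shown because 1 of the 4, Ckb, differed strongly between the genotypes while its paralogs did not show a comparable difference. Each is the stretch of 250 bases before the annotated start, from RefSeq on GRCm38.p6, written 5′ to 3′ on the gene's own strand. Ckb lies on the minus strand (chr12:111672339-111672588), Ckm on the plus strand (chr7:19410844-19411093), Ckmt1 on the plus strand (chr2:121357526-121357775, the first of 2 annotated starts) and Ckmt2 on the minus strand (chr13:91876886-91877135). Capitals mark TATAAA and CCAAT on either strand.
Ckb: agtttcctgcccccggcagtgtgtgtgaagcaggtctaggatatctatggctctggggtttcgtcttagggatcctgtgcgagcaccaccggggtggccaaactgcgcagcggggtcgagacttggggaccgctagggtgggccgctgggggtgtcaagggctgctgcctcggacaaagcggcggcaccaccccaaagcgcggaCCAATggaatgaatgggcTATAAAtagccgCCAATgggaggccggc
Ckm: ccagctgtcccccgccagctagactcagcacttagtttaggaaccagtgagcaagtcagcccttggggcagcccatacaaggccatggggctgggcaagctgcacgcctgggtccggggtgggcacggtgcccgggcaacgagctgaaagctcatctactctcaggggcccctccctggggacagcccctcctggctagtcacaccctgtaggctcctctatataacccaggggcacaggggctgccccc
Ckmt1: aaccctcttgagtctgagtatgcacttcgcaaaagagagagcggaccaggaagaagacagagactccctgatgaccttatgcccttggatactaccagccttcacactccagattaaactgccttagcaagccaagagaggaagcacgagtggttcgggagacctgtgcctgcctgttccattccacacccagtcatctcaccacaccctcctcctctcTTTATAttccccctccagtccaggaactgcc
Ckmt2: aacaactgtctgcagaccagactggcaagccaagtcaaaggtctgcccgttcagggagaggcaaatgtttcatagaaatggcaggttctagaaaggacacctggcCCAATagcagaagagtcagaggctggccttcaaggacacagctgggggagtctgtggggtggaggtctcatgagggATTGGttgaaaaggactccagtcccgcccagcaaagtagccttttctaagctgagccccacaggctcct
In Ckb, a TATAAA lies 28 to 23 bases before the start, between a CCAAT at 46 to 42 and another at 16 to 12 bases before it. Of 32851 promoter windows of the same length, 12.4% hold TATAAA on either strand, 33.9% hold CCAAT, and 1.19% hold TATAAA with 2 or more CCAAT. The last pattern is the one the Ckb window holds, so its share is a description, and a link to the Ckb difference was not tested. Ckmt1 has TATAAA on the opposite strand, 31 to 26 bases before its first start, and Ckmt2 has CCAAT once on each strand. The Ckm window holds neither word, but it holds TATATAA, and variants of these words were not searched. ACGTG, a form of the core sequence that HIF binds, occurs in none of these 4 windows. It occurs in 1 place in the Gatm promoter and in 16.6% of all windows. Other forms of that core were not searched. The GC box GGGCGG occurs on the opposite strand in Ckmt2, with 1 match, and in Gamt, with 3, and 32.7% of all windows hold it. Such matches describe the letters and do not show that a factor binds. Promoters were matched for 6 of the 7 members; Slc6a8 is named only.

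The median log2 signal of an array was 5.30 to 5.35, and the epithelial marker list, with Epcam and Vil1 in it, averaged 11.20 to 11.38 on the HDAC3ΔIEC arrays and 11.12 to 11.32 on the HDAC3FF arrays. None of its 12 genes was called, beside 0.701% of all genes, while 4 were higher and 1 lower at an unadjusted limma p under 0.05, beside 11.2% of all genes in either direction; the log2 fold changes were -0.06 for Epcam, 0.18 for Vil1, and 0.26 and 0.17 for its brightest genes, the keratin Krt8 and the carbonic anhydrase Car1. Hdac3, the targeted gene, read 6.58, 6.22 and 6.00 on the HDAC3ΔIEC arrays, all below the 6.96, 7.36 and 7.04 of the HDAC3FF arrays. Its log2 fold change was -0.86 ± 0.17 (SE), with a limma adjusted p = 0.0937, and probes of this set that lie outside the deleted stretch would not report the deletion. The 2 replicate 3 arrays carried the lowest estimated array weights of their groups, 0.655 in HDAC3ΔIEC and 0.475 in HDAC3FF, so values without them are given beside the results whose call or sign they change.

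Ckb was the member that differed most. Its log2 signal was 9.62, 9.96 and 9.81 on the HDAC3ΔIEC arrays, against 6.70, 7.06 and 7.16 on the HDAC3FF arrays. The lowest HDAC3ΔIEC array stood far above the highest control array, and the spread inside either group was small beside that gap. The means were 9.80 ± 0.17 in HDAC3ΔIEC and 6.97 ± 0.24 in HDAC3FF (SD, n = 3 each), a log2 fold change of 2.83 ± 0.15 (SE), or 7.10-fold. Among all 19533 genes, 5 had a larger rise. The Ckb gene spans chr12:111669355-111672338 (GRCm38.p6).

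**Figure D1:**
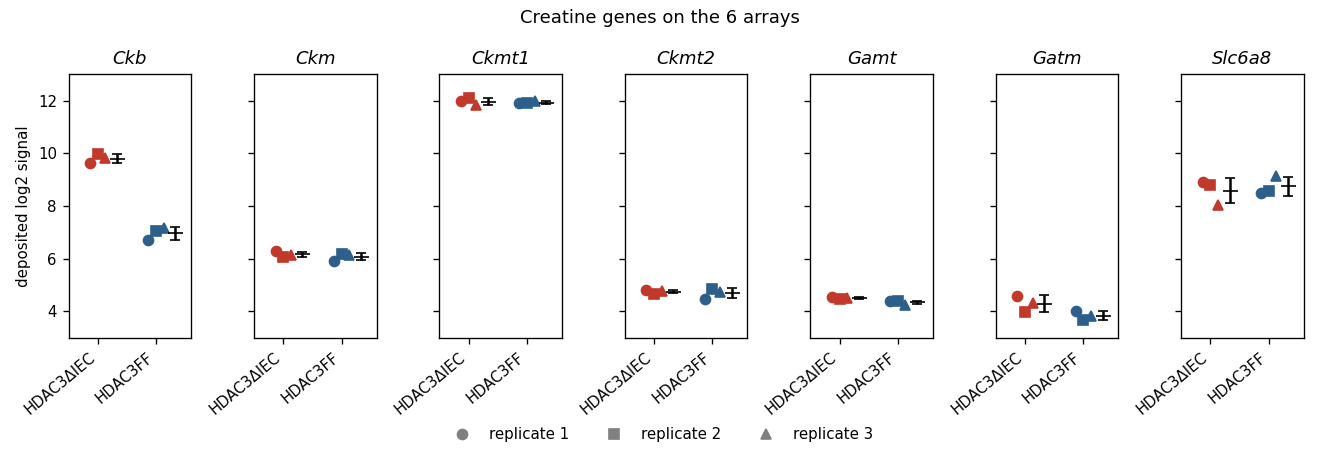
Deposited log2 signal (vertical axis) of the 7 creatine genes on each array, with HDAC3ΔIEC in red and HDAC3FF in blue; marker shapes give the replicate number and black bars the mean ± SD (n = 3). The Ckb signals of 9.62 to 9.96 in HDAC3ΔIEC lie above the 6.70 to 7.16 of HDAC3FF, whereas for Ckm, Ckmt1, Ckmt2, Gatm and Slc6a8 the groups overlap.

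The other kinases differed little in mean. Ckmt1, the mitochondrial form found in epithelia, was bright on every array, at 12.00, 12.09 and 11.82 in HDAC3ΔIEC and 11.90, 11.92 and 11.98 in HDAC3FF. The HDAC3ΔIEC values lay on both sides of the control values, and the log2 fold change was 0.04 ± 0.09 (SE), with 21.9% of all genes showing a smaller absolute change.

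Ckm, the muscle form, read 6.28, 6.07 and 6.15 in HDAC3ΔIEC and 5.93, 6.17 and 6.14 in HDAC3FF, with a log2 fold change of 0.09 ± 0.10 (SE). The highest and the lowest of these 6 values came from replicate 1 of the 2 groups, and the rest lay within the overlap. Ckmt2, the striated muscle mitochondrial form, read 4.83, 4.68 and 4.77 in HDAC3ΔIEC and 4.48, 4.85 and 4.76 in HDAC3FF, a log2 fold change of 0.06 ± 0.11 (SE). It lay below the median signal of every array, where weak signal and background are hard to separate, since the deposited table has no detection call.

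Both synthesis genes were dim as well. Gatm, which catalyses the first step, read 4.60, 3.96 and 4.32 in HDAC3ΔIEC, against 4.03, 3.68 and 3.82 in HDAC3FF. Replicate 2 of HDAC3ΔIEC fell below replicate 1 of HDAC3FF, so the groups overlapped at this one pair. The log2 fold change was 0.45 ± 0.17 (SE), the largest among the members after Ckb, and 94.1% of all genes had a smaller absolute change.

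Gamt, the methyltransferase of the closing step, read 4.54, 4.46 and 4.52 in HDAC3ΔIEC and 4.39, 4.38 and 4.27 in HDAC3FF. The groups did not overlap, but the log2 fold change was 0.16 ± 0.08 (SE), or 1.12-fold. Gatm and Gamt were below the median signal of all 6 arrays, and their levels in these cells are therefore uncertain.

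Slc6a8, the importer, was well above the array medians and varied more inside the groups than between them. It read 8.92, 8.80 and 8.04 in HDAC3ΔIEC and 8.50, 8.58 and 9.16 in HDAC3FF. Replicate 3 was the lowest array of HDAC3ΔIEC and also the highest of HDAC3FF. The means were 8.58 ± 0.48 in HDAC3ΔIEC and 8.75 ± 0.36 in HDAC3FF (SD, n = 3 each), a log2 fold change of -0.16 ± 0.27 (SE). The sign rested on these 2 arrays: it was 0.11 without HDAC3ΔIEC replicate 3, 0.04 without HDAC3FF replicate 3, 0.32 without both and 0.07 with array weights.

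**Figure D2:**
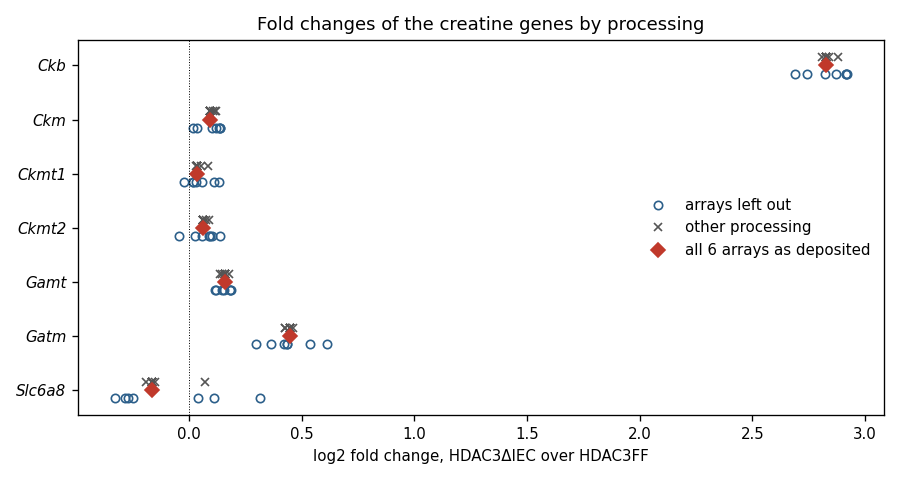
Log2 fold change of each member, HDAC3ΔIEC over HDAC3FF (horizontal axis), with all 6 arrays as deposited (red diamond), with arrays left out (blue circles) and under other processing (grey crosses). Ckb stays between 2.69 and 2.92 with any 1 array left out, and Slc6a8 lies on both sides of 0.

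Of the 7 members, 6 had a positive log2 fold change, and their median was 0.09, beside 0.01 over all genes. With limma's adjusted p under 0.05 as the threshold, 1 member, Ckb, was called, and it was higher, beside 0.701% of all genes called in either direction and 0.369% called higher. The groups did not overlap for 2 members, Ckb and Gamt, both higher, beside 16.2% of all genes in either direction and 8.45% higher. The members were listed with this contrast known, so these counts only describe them. In bulk samples such as these, a change in the number of cells of a type and a change in RNA per cell cannot be told apart.

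**Figure D3:**
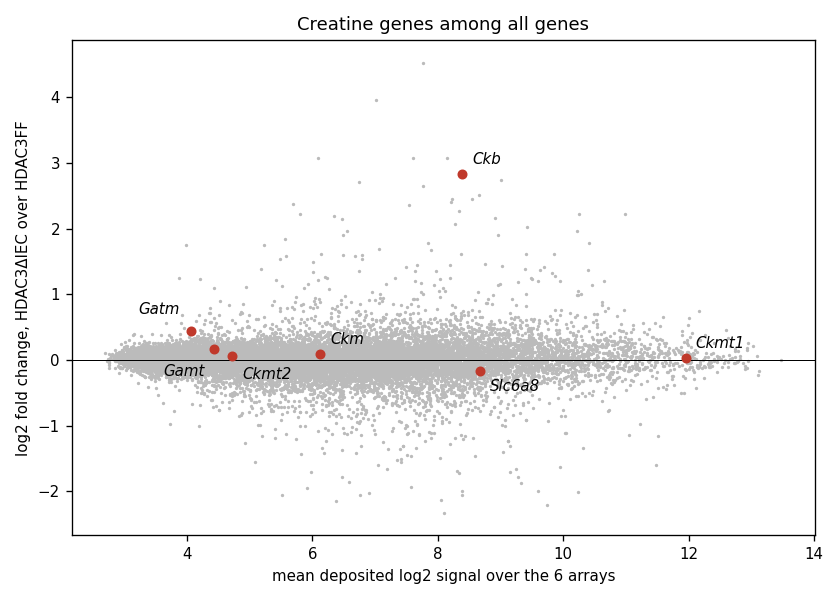
Log2 fold change, HDAC3ΔIEC over HDAC3FF (vertical axis), against mean log2 signal over the 6 arrays (horizontal axis) for all 19533 genes (grey) and the 7 members (red). Ckb stands at 2.83 near the upper edge, and the other members lie between -0.16 and 0.45.

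The 5 genes whose profile over the 6 arrays was closest to that of Ckb were ranked by the root mean square difference between log2 signals, each centred on its own mean. Ereg, the gene of epiregulin, a ligand of the EGF receptor, was closest at 0.14, followed by the hormone gene Ppy (pancreatic polypeptide) at 0.17. Mgll (monoacylglycerol lipase) followed at 0.30, Lpcat4 (a lysophospholipid acyltransferase) at 0.30, and the mitochondrial carrier Slc25a45 at 0.33. The median over the other 19532 genes was 1.42. A gene that hardly differed between the genotypes scores high on this measure by construction, and only a gene with a rise near that of Ckb can score low. The rises of all 5, with log2 fold changes of 2.35 for Lpcat4 to 3.07 for Ppy, therefore follow from the ranking. Ereg read 7.49, 7.89 and 7.49 in HDAC3ΔIEC and 4.29, 4.70 and 4.69 in HDAC3FF, so that, as for Ckb, replicate 2 was the highest array of HDAC3ΔIEC and replicate 1 the lowest of HDAC3FF. Its 3 HDAC3FF values lay below the array medians, so its difference and its place in this order rest on control signals not shown to exceed background.

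**Figure D4:**
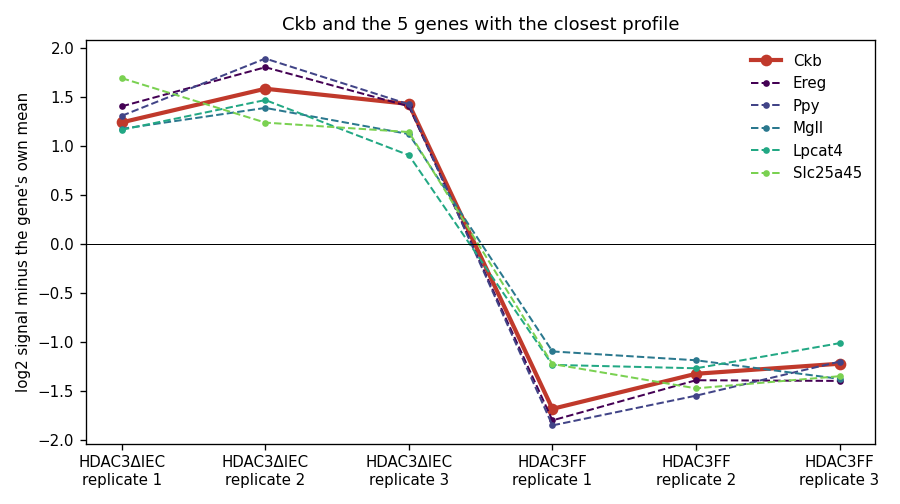
Log2 signal minus the gene's own mean over 6 arrays (vertical axis) for Ckb (thick red) and the 5 genes closest to it, on the 3 HDAC3ΔIEC and 3 HDAC3FF arrays; lines only join points of one gene. Ereg, with a root mean square difference of 0.14, runs closest to Ckb.

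Markers of other cells were set beside Ckb. The enteroendocrine list was higher in HDAC3ΔIEC: 16 of its 17 measured genes had positive log2 fold changes, with a median of 0.91, and 3 (Ppy, Pyy and Insl5, the last named after its values were seen) rose (limma, adjusted p under 0.05), beside 0.701% of all genes. Its mean log2 signal ran from 7.70 to 8.10 over the HDAC3ΔIEC arrays and from 6.33 to 6.94 over the HDAC3FF arrays, and 4 of the 17 lay under every array median. Of its brightest genes, Chgb (chromogranin B) read higher by 0.58 ± 0.25 on the log2 scale (SE, limma adjusted p = 0.449) and Pyy (peptide YY) one of 2.22 ± 0.33 (limma adjusted p = 0.0405). Inside HDAC3ΔIEC, Ckb was highest on replicate 2, where the mean of the enteroendocrine list was lowest, at 7.70, and inside HDAC3FF both were highest on replicate 3. The part of these cells in the Ckb difference was not tested.

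Neuron and glia markers, of interest because CKB is the brain-type enzyme, averaged 4.75 to 4.76 over the HDAC3ΔIEC arrays and 4.59 to 4.74 over the HDAC3FF arrays. Of these 11 genes, 9 lay under every array median, and none passed; the brightest, Snap25 and Ret, read higher by 0.32 ± 0.17 (SE, limma adjusted p = 0.581) and 0.60 ± 0.13 (limma adjusted p = 0.106). At an unadjusted p under 0.05 there was 1 gene, beside 11.2% of all genes, and the part of these cells in the Ckb difference was not tested. Striated muscle markers, the usual company of Ckm and Ckmt2, averaged 4.76 to 4.88 in HDAC3ΔIEC and 4.70 to 4.95 in HDAC3FF, with 12 of 15 under every array median. Acta1, the brightest of them, had -0.42 ± 0.36 (limma adjusted p = 0.779) and Actc1 had 0.06 ± 0.07 (limma adjusted p = 0.860).

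Smooth muscle, fibroblast and endothelial, and leukocyte markers had no passing gene among 10, 13 and 17 measured. Their mean signals overlapped between the groups, at 5.07 to 5.10 in HDAC3ΔIEC and 4.97 to 5.17 in HDAC3FF for smooth muscle. They were 4.82 to 4.92 in HDAC3ΔIEC and 4.77 to 4.96 in HDAC3FF for fibroblasts and endothelium, and 4.58 to 4.70 in HDAC3ΔIEC and 4.64 to 4.72 in HDAC3FF for leukocytes. At an unadjusted p under 0.05, 0 smooth muscle, 1 fibroblast and endothelial and 2 leukocyte genes were counted, beside 11.2% of all genes. The brightest genes of these lists had log2 fold changes of 0.27 (Tagln) and -0.18 (Mylk) for smooth muscle, 0.49 (Vim) and 0.21 (Lyve1) for fibroblasts and endothelium, and -0.40 (Cd14) and -0.26 (Ccl5) for leukocytes.

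Genes connected to creatine by substrate, energy transfer or regulation were then counted in 8 lists. None of the 137 measured genes passed limma's test over all genes, beside 0.701% of all genes. At an unadjusted p under 0.05, 14 were higher and 11 lower in HDAC3ΔIEC, beside 11.2% of all genes in either direction. The median log2 fold change of the 137 was 0.03, and of all genes 0.01. Ordinary unmoderated statistics called 0 of all genes, so they could call none of these. The count moved with the arrays: 5 passed without HDAC3FF replicate 3, 5 with array weights and 15 without replicate 3 of both groups, which were left out because they had the lowest weights.

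Among 16 measured kinases that move phosphate between nucleotides, such as the adenylate kinases, the median log2 fold change was 0.07. Nme3, a nucleoside diphosphate kinase, read 7.52, 7.21 and 7.48 in HDAC3ΔIEC and 7.80, 8.11 and 7.77 in HDAC3FF, which gave -0.49 ± 0.13 on the log2 scale (SE, limma adjusted p = 0.184). Guk1, the guanylate kinase, had 0.22 ± 0.09 (limma adjusted p = 0.400). The groups did not overlap for either gene, and neither was called. In the list of 16 this held for 3 higher and 1 lower gene, beside 16.2% of all genes without overlap.

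The AMP-activated kinase senses a falling energy charge. Its list of 12 measured subunits, upstream kinases and their partner proteins showed no gene at an unadjusted limma p under 0.05. The list had a median of -0.04 and ran from -0.23 to 0.12. Prkaa2, a catalytic subunit, had the lowest value, -0.23 ± 0.10 (SE, limma adjusted p = 0.470), and Prkag3, a regulatory subunit, had 0.11 ± 0.09 (limma adjusted p = 0.773).

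Genes listed for the exchange of ATP, ADP and phosphate across the mitochondrial membranes, next to CKMT1, numbered 12, with a median of 0.04. They were Slc25 family carriers, the channel genes Vdac1 to Vdac3, and Atpif1, which is not a carrier. Slc25a4, the ADP/ATP carrier ANT1, read 7.21, 6.96 and 7.37 in HDAC3ΔIEC, against 8.41, 9.12 and 7.73 in HDAC3FF. All 3 HDAC3ΔIEC values were below the controls, but the controls spread widely, with replicate 3 nearest to HDAC3ΔIEC. The difference of -1.24 ± 0.32 on the log2 scale (SE) missed the threshold (limma adjusted p = 0.167). It was -1.58 without HDAC3FF replicate 3 (limma adjusted p = 0.0223) and -1.68 without replicate 3 of both groups (limma adjusted p = 0.0194). With array weights it was -1.42 (limma adjusted p = 0.0436). It was -0.89 without HDAC3FF replicate 2 (limma adjusted p = 0.228). The gene passed only with array weights or with HDAC3FF replicate 3 left out. Slc25a24, an ATP-Mg/phosphate carrier, had 0.26 ± 0.12 (limma adjusted p = 0.508). The groups did not overlap for 1 higher and 1 lower gene of the 12, beside 16.2% of all genes in either direction.

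Supply of arginine and glycine, the substrates of GATM, and of ornithine was read through 22 genes with a median of 0.07. Cps1, carbamoyl phosphate synthetase, read 6.38, 6.81 and 6.22 in HDAC3ΔIEC and 5.73, 5.82 and 5.31 in HDAC3FF (log2 fold change 0.85 ± 0.19, SE, limma adjusted p = 0.119). Shmt2, which makes glycine from serine in mitochondria, read 7.22, 7.24 and 6.84 in HDAC3ΔIEC and 6.57, 6.50 and 6.00 in HDAC3FF (0.74 ± 0.18, limma adjusted p = 0.150). In both genes every HDAC3ΔIEC array exceeded every control array. Neither passed with all arrays, and without replicate 3 of both groups their limma adjusted p were 0.0429 and 0.0208. In that setting 2 more genes of the list, named after their values were seen, passed in opposite directions: the amino acid transporter Slc7a9 at 1.07 (limma adjusted p = 0.00896) and Otc, ornithine transcarbamylase, at -0.90 (limma adjusted p = 0.0192). Otc also passed without HDAC3FF replicate 3 alone, at -0.89 (limma adjusted p = 0.0160). With all 6 arrays Slc7a9 had 0.36 and Otc -0.50, and neither passed. The groups did not overlap for 3 higher and 1 lower gene of the 22, beside 16.2% of all genes in either direction.

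The methyl donor list, which covers the S-adenosylmethionine that GAMT consumes and the homocysteine that follows, had 14 measured genes, a median of -0.13 and 8 negative values. Cth, cystathionine gamma-lyase, read 9.45, 9.12 and 9.38 in HDAC3ΔIEC, against 9.91, 9.81 and 10.02 in HDAC3FF. Its log2 fold change was -0.60 ± 0.11 (SE, limma adjusted p = 0.0793). Cbs, cystathionine beta-synthase, which acts one step before it, read 7.81, 7.88 and 7.09 in HDAC3ΔIEC and 8.55, 8.53 and 8.03 in HDAC3FF, a difference of -0.77 ± 0.24 (limma adjusted p = 0.256, and 0.0208 without replicate 3 of both groups). These enzymes carry homocysteine to cysteine; both were lower on all HDAC3ΔIEC arrays, and neither passed with all arrays. Adk, adenosine kinase, named after its values were seen, had -0.66 without HDAC3FF replicate 3 (limma adjusted p = 0.0479) and -0.75 without replicate 3 of both groups (limma adjusted p = 0.0228). With all 6 arrays Adk had -0.37 and did not pass. The groups did not overlap for 5 lower and 2 higher genes of the 14, beside 16.2% of all genes.

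The SLC6 family, to which the creatine importer belongs, and the creatine exporter Slc16a12 had 18 measured genes with a median of -0.03, and 13 of them lay under every array median. Slc6a14, an amino acid transporter, read 10.15, 9.89 and 9.39 in HDAC3ΔIEC and 10.51, 10.14 and 10.55 in HDAC3FF (log2 fold change -0.59 ± 0.21, SE, limma adjusted p = 0.320). Slc6a19, a neutral amino acid transporter, read 7.34, 6.96 and 6.13 in HDAC3ΔIEC and 5.77, 5.84 and 6.36 in HDAC3FF (0.82 ± 0.31, limma adjusted p = 0.376). As with Slc6a8, replicate 3 of HDAC3ΔIEC was the lowest of its group for both genes and replicate 3 of HDAC3FF the highest of its own. Without replicate 3 of both groups, Slc6a19 had 1.34 (limma adjusted p = 0.00988).

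Pumps and myosins, large users of ATP in epithelia, had 20 measured genes, a median of 0.07 and values from -0.36 to 0.61. Myo1a, the brush border myosin, had 0.24 ± 0.08 (SE, limma adjusted p = 0.277) and Myh9, the non-muscle myosin heavy chain, 0.27 ± 0.09 (limma adjusted p = 0.311). Of the 20 genes, the groups did not overlap for these 2 only, beside 16.2% of all genes in either direction. Myh14, another non-muscle myosin heavy chain, named after its values were seen, passed without replicate 3 of both groups, at 0.71 (limma adjusted p = 0.0401). With all 6 arrays Myh14 had 0.43 and did not pass.

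HIF factors and targets had 23 measured genes with a median of 0.08, 15 of them positive. Ndrg1, a stress-induced HIF target, read 10.92, 11.21 and 11.09 in HDAC3ΔIEC and 9.42, 9.43 and 10.26 in HDAC3FF. Here too the groups did not overlap and HDAC3FF replicate 3 lay nearest to HDAC3ΔIEC. Its log2 fold change of 1.37 ± 0.23 (SE) was just outside the threshold (limma adjusted p = 0.0567). It was 1.65 without HDAC3FF replicate 3 (limma adjusted p = 0.00178). Without HDAC3FF replicate 1 or replicate 2 it was 1.23 (limma adjusted p = 0.2034 and 0.1625). Ndrg1 passed with no other single array left out. Ddit4, an inhibitor of mTORC1 signalling that hypoxia also induces, read 7.61, 7.95 and 7.54 in HDAC3ΔIEC and 7.05, 7.01 and 6.96 in HDAC3FF (0.69 ± 0.12, limma adjusted p = 0.0628). It was 0.75 without replicate 3 of both groups (limma adjusted p = 0.0361). Within the list, 4 genes were higher and 2 lower at an unadjusted p under 0.05, beside 11.2% of all genes in either direction. The groups did not overlap for 4 higher and 2 lower genes, beside 16.2% of all genes. Without replicate 3 of both groups, Vegfa, Slc2a1, Ldha and Abcb1a, named after their values were seen, also passed as higher. Other targets went the other way: 8 of the 23 genes were negative with all arrays. The lowest, also named after their values were seen, were Adm at -0.85 and P4ha1 at -0.70.

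**Figure D5:**
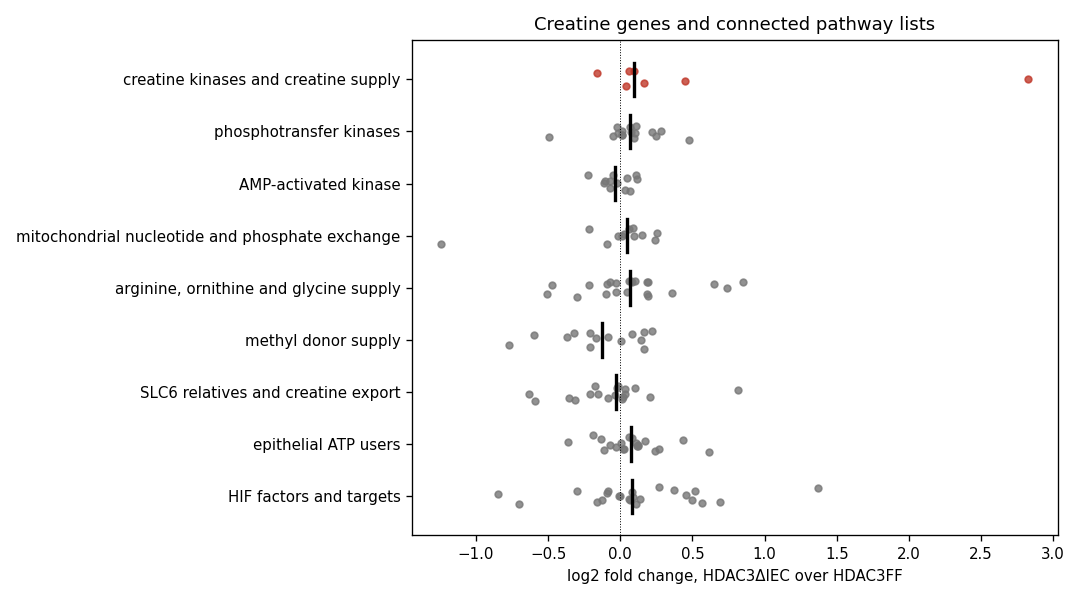
Log2 fold change, HDAC3ΔIEC over HDAC3FF (horizontal axis), of the 7 creatine genes (red) and of the measured genes of 8 connected lists (grey); black bars are medians, and points are spread vertically for legibility. List medians lie between -0.13 and 0.09, and Ckb at 2.83 lies beyond every gene of the connected lists, of which the highest is Ndrg1 at 1.37.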

How the data were processed

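Log2 signals were used as deposited, 1 per probe set and array; the authors made them with Affymetrix Power Tools, per the submitters' processing notes, and its version, background correction and normalization were not given in the sources used here. Of 24939 probe sets, 21105 have 1 gene symbol, 1254 several and 2580 none listed, and 21022 were matched by Entrez number to RefSeq (GRCm38.p6). The brightest probe set on average represented each of 19533 genes. HDAC3ΔIEC was compared with HDAC3FF, 3 arrays each, by limma 3.58.1 (lmFit, eBayes, two-sided, no covariate, 3.26 prior degrees of freedom) in R 4.3.3, with Benjamini-Hochberg adjustment over all genes. Standard errors are limma's. The fit was tested on simulated data.

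Members and lists were chosen with earlier results of these data known, and members get no p-value. Named genes are the members, Hdac3, up to 4 called genes or the 2 smallest p per pathway list, Epcam, Vil1 and the 2 brightest markers per cell list, and the 5 genes closest to Ckb. Of 149 pathway genes 137 were measured. As alternatives the fit used array weights, a replicate block, a robust prior or an intensity trend, median centring, quantile normalization, a filter that drops the dimmest 25% of genes, mean or all probe sets, unmoderated statistics, each array left out and, added after seeing the data, replicate 3 of both groups left out. Figures were drawn with matplotlib 3.10.9. Precision is limited by the 3 arrays of each group.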

Additional observations from a re-analysis of the deposited data

How the results depend on the processing

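Ckb was called under 16 of 17 alternatives; with unmoderated statistics 0 members passed, and no other member was called in any. Over all genes 137 passed, against 12 with the replicate block, 357 with array weights, 90 with all probe sets tested, 0 with unmoderated statistics (1858 at an unadjusted p under 0.05), 744 without replicate 3 of both groups, and 13 to 430 with 1 array left out (of HDAC3ΔIEC, omitting replicate 1 left 46, replicate 2 left 14 and replicate 3 left 29; of HDAC3FF, omitting replicate 1 left 13, replicate 2 left 46 and replicate 3 left 430). Leaving out arrays with low weights narrows the spread by construction. Of the connected lists 0 genes passed, against 1 with an intensity trend (Ndrg1), 1 with dim genes left out (Ndrg1), 1 with quantile normalization (Ddit4), 5 with array weights, 15 without replicate 3 of both groups, and 0 to 5 with 1 array left out.

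With 1 array left out, log2 fold changes ran from 2.69 to 2.92 for Ckb, 0.02 to 0.14 for Ckm, -0.02 to 0.11 for Ckmt1, -0.05 to 0.14 for Ckmt2, 0.12 to 0.19 for Gamt, 0.30 to 0.61 for Gatm and -0.33 to 0.11 for Slc6a8, which was 0.32 without replicate 3 of both groups. Ckmt1 was below 0 without HDAC3ΔIEC replicate 2, Ckmt2 without HDAC3FF replicate 1, and Slc6a8 above 0 without replicate 3 of either group. Gatm fell under the dim filter and has no value there. The labels do not say that arrays with the same replicate number belong together. Deviations from the group means of such arrays correlated at -0.02, -0.07 and -0.20 over genes, and no array correlated best with its own number. With 3 arrays in each group, these correlations cannot settle whether the arrays were paired. No scaling moved the median log2 fold change of all genes beyond 0.03. Signal over background is unknown, which limits Ckmt2, Gatm, Gamt and the HDAC3FF level of Ereg.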
